A study of Nicotiana tabacum with 9 samples.

Results

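In tobacco pollen tubes, 31 abundant genes stayed at nearly the same transcript level before heat, after further growth and under heat stress (HS). They include the α-tubulin gene TUA5, the profilin gene PRO2 and a carbonic anhydrase gene, CA. The genes were chosen by these levels. Counts relative to library size (CPM) were scaled with TMM (trimmed mean of M-values), which sets the effective size of each library so that the bulk of its genes lines up with the other libraries. Genes were kept with a mean of at least 100 CPM in each of the 3 conditions and at most 0.1 between the highest and the lowest condition mean on the log2 scale, called the range here. The 100 genes with the highest CPM at 3 h, before TMM scaling, were left out. Of 74044 counted genes, 24013 exceeded 0.5 CPM in at least 2 libraries, and 998 of these reached the mean of 100 CPM in each condition. All 100 of the genes left out were among the 998, which leaves 898, and 31 of the 898 (3.45%) had a range of at most 0.1. The condition means of all 9 libraries therefore went into the choice, and the levels of the 31 genes and their differences between conditions are a description.

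Pollen of the cultivar Samsun-NN, pooled from several plants, was germinated on solid medium, and mRNA of the tubes was sequenced in 3 conditions with 3 libraries each. The tubes grew for 3 h at room temperature (RT 3 h), for 6 h at room temperature (RT 6 h), or for 3 h at room temperature followed by 3 h at 37°C (HS 3 + 3 h, written HS in the comparisons). All groups are the same cultivar on the same medium, so RT 6 h and HS differ in temperature at equal age, while RT 3 h and RT 6 h differ in age. Separate pollen pools for the libraries of a condition are not given in the sources used here, so p-values and SDs measure the spread between these libraries, which may be technical.

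A pollen tube elongates at its tip and carries the sperm cells to the ovule. Its growth rests on actin filaments that bring vesicles to the tip, on microtubules behind it, and on a steady supply of membrane lipids and cell wall material. Transcripts with a steady level are what other transcripts are measured against, for example as reference genes in quantitative PCR. The genes described here are steady on the TMM scale only. Their share of all counts fell from 1.09% at RT 3 h to 0.894% under HS. Their use as reference genes was not tested. Tobacco is an allotetraploid formed from a pair of wild species, so that most of its genes have a close copy from the other parent.

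The libraries held between 14931693 (HS replicate 1) and 26772286 (RT 3 h replicate 2) counts on genes. The smallest count of any of the 31 genes in any library was 1308, for LOC107831063 in an HS library. Pollen genes by name, such as ntp302, ntp805 and PPME1, were present at a mean of 1002 to 23560 CPM (6 genes), and 6 leaf photosynthesis genes by name were at 0 to 0.186 CPM. No pair of replicates was a copy, with a chi-square per degree of freedom of 1.68 to 6.06. Its highest values, 3.83 and 6.06, were both pairs with RT 3 h replicate 1.

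The 3 genes nearest the limit on the range inside it were LOC107773448 at 0.0948, LOC107813707 at 0.0967 and LOC107775008 at 0.0979. Just outside stood LOC107784711 at 0.1001, LOC107811767 at 0.102 and LOC107818999 at 0.103, so the values run on across the limit without a gap. The lowest condition means inside were 103.6 CPM for LOC107831063, 104.5 for LOC107821215 and 107.4 for LOC107826163. Steady genes just under the level limit were LOC107787839 at 99.8, LOC107820833 at 98.3 and LOC107821037 at 94.9 CPM. The level at RT 3 h before TMM scaling was 1622 CPM for TUA5, the highest of the 31, and 1835 CPM for LOC107761724, the lowest of the 100 genes left out. None of those 100 had a range of at most 0.1, and the smallest were 0.109 for LOC107806375 and 0.123 for LOC107778409.

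TUA5 (LOC107773558), an α-tubulin and thus a building block of microtubules, had the smallest range of the 31 genes at 0.0234. It lies on scaffold NW_015898274.1 of the TN90 assembly, bases 1224 to 3728 on the minus strand, with 4 exon blocks. Its level was 1438, 1465 and 1504 CPM in the RT 3 h libraries, 1467, 1490 and 1457 CPM at RT 6 h, and 1407, 1441 and 1494 CPM under HS. All 3 conditions overlapped, and the highest library exceeded the lowest 1.07-fold. The fitted log2 fold change (log2FC) of HS against RT 6 h was -0.02 with a standard error (SE) of 0.0386 and a 95% interval from -0.10 to 0.05. By length, TUA5 was also the highest of the 31, at 1105 RPKM (CPM per kilobase of exon, on the TMM-scaled library size) at RT 3 h and 1089 under HS.

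PRO2 (LOC107782638) codes for a profilin, a small protein that binds actin monomers. It lies on scaffold NW_015908838.1, bases 77023 to 79460 on the plus strand, and with 714 exon bases it is the shortest of the 31. Its condition means were 543 ± 62.9 CPM at RT 3 h, 547 ± 32.7 at RT 6 h and 554 ± 16.4 in HS (SD, n = 3), a range of 0.0278. Single libraries varied more than the means. RT 3 h gave 612, 529 and 488 CPM, RT 6 h gave 582, 542 and 517 CPM, and HS gave 536, 556 and 568 CPM. The highest and the lowest library were both RT 3 h, 1.25-fold apart, which was the widest spread of the 31, and the HS libraries lay between them. Its SD between replicates, pooled over the conditions on the log2 scale, was 0.110, the largest of the 31 and well above its range.

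CA (LOC107768773), a carbonic anhydrase that interconverts carbon dioxide and bicarbonate, varied less between libraries than PRO2. The RT 3 h libraries held 265, 267 and 283 CPM, the RT 6 h libraries 270, 272 and 267 CPM, and the HS libraries 265, 266 and 268 CPM. Of the 9 libraries, 8 lay between 265 and 272 CPM, and RT 3 h replicate 3 stood above them. Its range was 0.0282 and its replicate SD 0.0307. The gene spans bases 146418 to 150349 of scaffold NW_015888785.1 on the minus strand.

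Among the members with an enzyme name, oas7 (LOC107777625) codes for an O-acetylserine (thiol)lyase, which makes cysteine. Its means were 126 ± 3.12 CPM at RT 3 h, 130 ± 2.76 at RT 6 h and 128 ± 2.06 in HS (SD, n = 3), and its range was 0.0432. PLC3 (LOC107819498), a phospholipase C that cleaves phosphoinositides of the plasma membrane, stood at 162, 163 and 156 CPM at RT 3 h, 165, 157 and 164 at RT 6 h, and 165, 175 and 169 under HS. For PLC3 the HS libraries were all above the RT libraries, by a small margin against each group. Its HS against RT 6 h log2FC was 0.07 (SE 0.0446, edgeR quasi-likelihood test with Benjamini-Hochberg adjustment, FDR 0.244).

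Homologs of Arabidopsis genes gave 3 further members a function. LOC107776076 is a homolog of AT1G15690, the vacuolar proton pyrophosphatase, which acidifies the vacuole at the expense of pyrophosphate. It held 765, 754 and 720 CPM at RT 3 h, 812, 781 and 796 at RT 6 h, and 717, 749 and 789 under HS. All RT 6 h libraries were above all RT 3 h libraries, while HS overlapped both. With a log2FC of 0.10 (SE 0.0477) from RT 3 h to RT 6 h and of -0.08 (SE 0.0404) from RT 6 h to HS, it was the only one of the 31 under an unadjusted p of 0.05 in either comparison (edgeR quasi-likelihood test, FDR 0.127 and 0.0891).

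LOC107778411 is a homolog of MGD2, which makes the galactolipid monogalactosyldiacylglycerol. The RT 3 h libraries were at 243, 256 and 261 CPM, the RT 6 h libraries at 262, 264 and 270 CPM and the HS libraries at 257, 254 and 260 CPM. RT 6 h was thus above all other libraries, with a range over the means of 0.0669. LOC107825894, a homolog of the sterol methyltransferase SMT1 that acts early in the synthesis of plant sterols, had means of 247 ± 13.8, 259 ± 6.67 and 249 ± 3.82 CPM (SD, n = 3) in the order RT 3 h, RT 6 h, HS. Its libraries overlapped in all 3 comparisons.

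**Figure D1:**
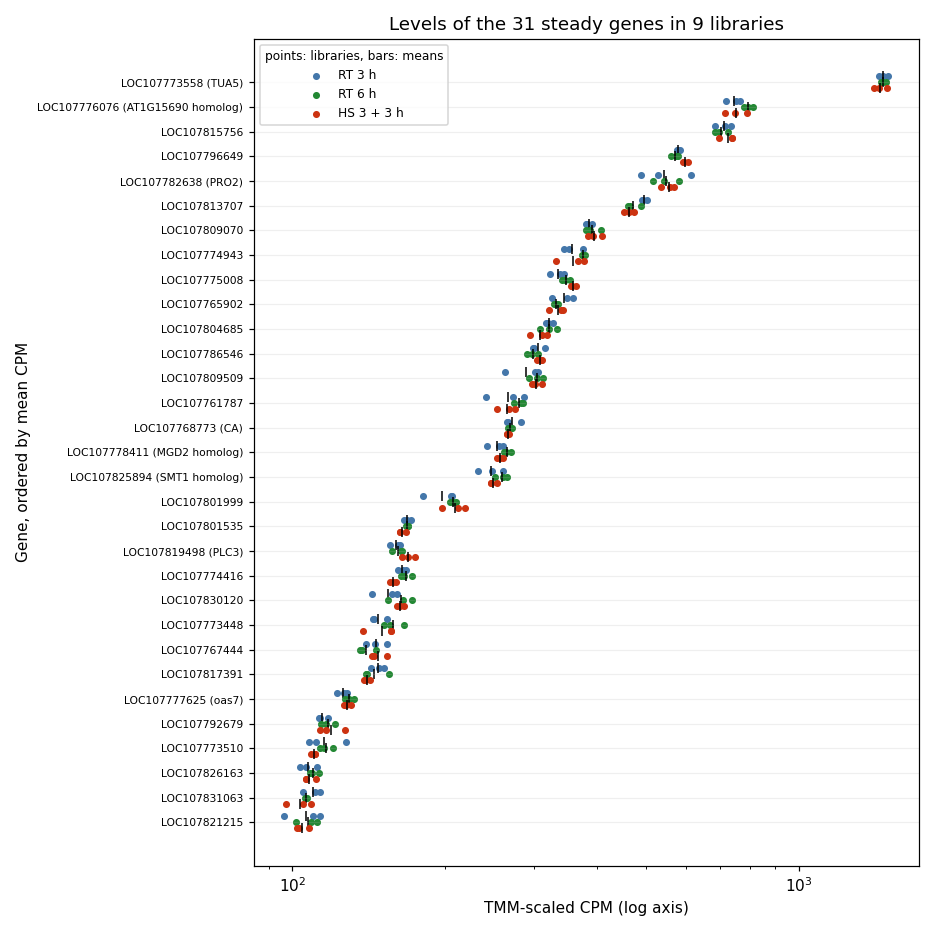
TMM-scaled CPM of the 31 steady genes (log axis) in each of the 9 libraries, coloured by condition, with black bars for the means of 3 libraries; genes are ordered by mean CPM. The points of a gene lie within 1.05-fold (LOC107801535) to 1.25-fold (PRO2) of each other.

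The other 23 members have no name or homolog in the sources used here. LOC107815756 was the third in CPM, with 736, 716 and 684 CPM at RT 3 h, 726, 697 and 684 at RT 6 h and 696, 739 and 740 under HS, and its conditions overlapped. LOC107796649 had the smallest replicate SD of the 31, 0.0169. It gave 579, 576 and 582 CPM at RT 3 h, 579, 560 and 571 at RT 6 h, and 595, 590 and 603 under HS, so that its HS libraries, with a mean of 596 CPM, lay above all RT libraries, whose means were 579 and 570 CPM. The fitted log2FC of HS against RT 6 h was 0.06 (SE 0.0399, edgeR quasi-likelihood test, FDR 0.202).

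LOC107801535 had the least spread over all libraries, 1.05-fold, with 166, 169 and 171 CPM at RT 3 h, 169, 167 and 169 at RT 6 h, and 168, 163 and 163 under HS. LOC107813707 and LOC107775008 went in opposite directions just inside the limit. LOC107813707 went from a mean of 495 ± 5.35 CPM at RT 3 h over 471 ± 14.3 at RT 6 h to 463 ± 10.3 under HS, and LOC107775008 went from 335 ± 10.7 over 347 ± 6.19 to 358 ± 3.82 CPM (SD, n = 3). In both, the HS libraries did not overlap those of RT 3 h. LOC107813707 was the only member with an unadjusted p under 0.05 for HS against RT 3 h, at a log2FC of -0.10 (SE 0.0492, edgeR quasi-likelihood test, FDR 0.0804).

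LOC107809070 (range 0.0388), LOC107826163 (0.0346), LOC107821215 (0.0394) and LOC107786546 (0.0484) complete the 10 members with the smallest ranges, and each had overlapping libraries in all 3 comparisons. Of these, LOC107821215 varied most between replicates, with 96.3, 110 and 114 CPM at RT 3 h. Its lowest library was RT 3 h replicate 1, as was that of LOC107809509 (263 CPM against 301 and 306 in the other RT 3 h libraries), LOC107761787 (242 against 286 and 273) and LOC107801999 (181 against 206 and 207). LOC107773510 was the reverse, with 128 CPM in that library and 112 and 108 in the others. In all, 10 of the 31 members had their lowest library at RT 3 h replicate 1, and 4 had their highest there. HS replicate 1, the library with the fewest counts, was the lowest in 8 members and the highest in 1. LOC107774943 and LOC107765902, also among the 10 highest in CPM, had means of 357 to 375 and of 332 to 344 CPM.

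LOC107774416 was among the 5 members with the smallest replicate SD (0.0286), with 162, 165 and 168 CPM at RT 3 h, 164, 166 and 172 at RT 6 h, and 158, 156 and 160 in HS. Its HS libraries lay below all RT libraries, and the log2FC of HS against RT 6 h was -0.08 (SE 0.0445, edgeR quasi-likelihood test, FDR 0.129). LOC107817391 likewise had its lowest mean in HS, 140 ± 2.06 CPM against 148 ± 4.2 at RT 3 h (SD, n = 3), without overlap of these libraries. LOC107830120 was the opposite, at 154 ± 9.17 CPM at RT 3 h and 163 ± 2.46 in HS. The remaining members, LOC107804685, LOC107767444, LOC107773448, LOC107792679 and LOC107831063, had overlapping libraries in every comparison, and their ranges lay between 0.0548 and 0.0948.

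These genes differ in length, and the deviation of single libraries went with length to a differing degree. For each gene, a library was compared with the mean of the other libraries of its condition. In RT 3 h replicate 1, the median log2 difference was -0.08 for the 15 members with more than 1701 exon bases and 0.03 for the other 16, and its Spearman correlation with exon length over the 31 genes was -0.62. RT 3 h replicate 2 had the opposite sign, at 0.89, and RT 6 h replicate 1 was at -0.54. Over the 867 other abundant genes, the same correlations were -0.46, 0.68 and -0.15. In the remaining libraries they were weaker, from -0.44 (HS replicate 1) to 0.48 (RT 6 h replicate 3) over the 31 genes. Over the 867 these ran from -0.31 (HS replicate 1) to 0.25 (HS replicate 2). Each library is set against the others of its condition, so opposite signs within a condition are partly built in. The 9 correlations are across genes that share their libraries, and no test was made of them. The part of exon length in the levels of these genes was not tested.

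Over the 31 genes, the spread between replicates was similar to that of other abundant genes, with a median replicate SD of 0.0496 against 0.0547 on the log2 scale. The quantity the rule limits, the range, had a median of 0.0669 in the 31 and 0.424 in the 867. In 11 of the 31 genes the range was smaller than the gene's own replicate SD, among them PRO2, TUA5 and CA, as it was in 3 of the 867. Over all 9 libraries, 28 of the 31 and 62 of the 867 stayed within 1.2-fold from lowest to highest, and the medians were 1.12-fold and 1.45-fold. The range is at most 0.1 in the 31 and above 0.1 in all of the 867, so these contrasts largely restate the rule.

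**Figure D2:**
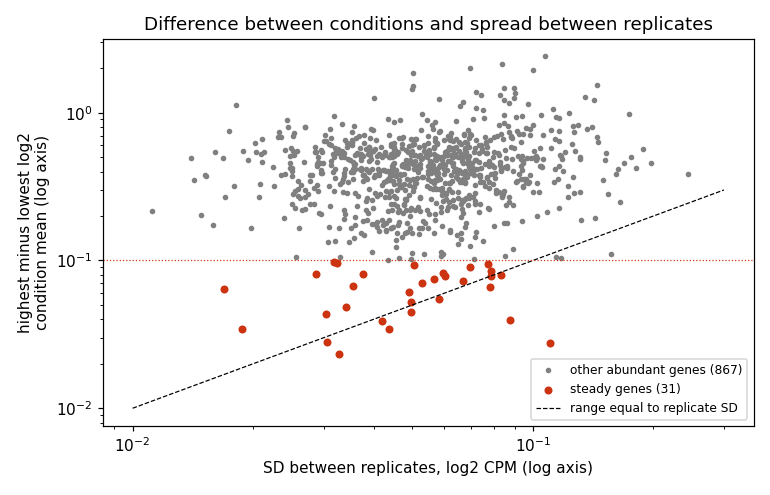
Range between the condition means against the SD between replicates (both log2 scale, log axes) for the 31 steady genes (red) and the 867 other abundant genes (grey). The dotted line is the limit of 0.1 that chose the red points, and the 11 steady genes under the dashed line have a range smaller than their replicate SD.

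Fitted in each comparison with edgeR's quasi-likelihood test on the 6 libraries concerned, none of the 31 genes reached an FDR (Benjamini-Hochberg) of 0.005. Between RT 3 h and RT 6 h, 0 of 31 were called (15.3% of all genes tested), between RT 6 h and HS 0 of 31 (31.9% of all genes), and between RT 3 h and HS 0 of 31 (35.3% of all genes). An unadjusted p under 0.05 was met by 1 member in each comparison. The likelihood ratio test of edgeR also called 0 in each, with 0 members under an unadjusted p of 0.05, and DESeq2 called 0, with 0, 3 and 1 members under it. Since the rule limits these same differences, the counts of 0 say nothing beyond it.

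The intervals give the width of the fit for single members. Since the rule chose these differences to be small, the intervals lie near 0 by that choice. Their counts say nothing beyond it, and the stated 95% does not hold after such a choice. The 95% interval of the log2FC lay within 0.2 either side of 0 in 29 of 31 genes for RT 6 h against RT 3 h, in all 31 for HS against RT 6 h and in 29 for HS against RT 3 h. LOC107773448 and LOC107830120 reached up to 0.21 in the first, and LOC107831063 and LOC107813707 reached down to -0.21 and -0.20 in the last. The median SE was 0.0517, 0.0427 and 0.0538 for the 3 comparisons in that order.

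**Figure D3:**
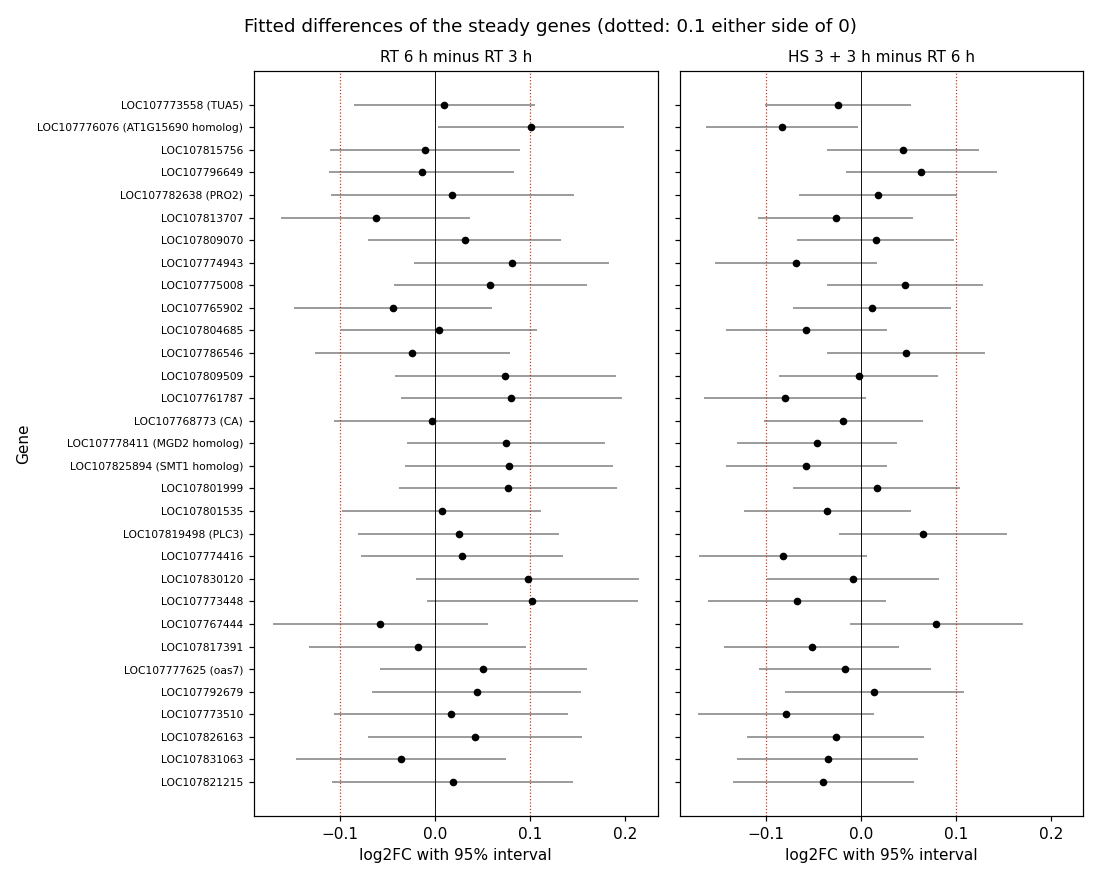
Fitted log2FC with 95% interval (edgeR quasi-likelihood fit, 3 against 3 libraries) of each steady gene, for RT 6 h minus RT 3 h (left) and HS minus RT 6 h (right); dotted lines mark 0.1 either side of 0. The points lie between -0.06 and 0.10 on the left and between -0.08 and 0.08 on the right.

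Libraries of a pair of conditions did not overlap in 3 of 31 genes for RT 3 h against RT 6 h (38.4% of all genes), in 6 for RT 6 h against HS (50.4%) and in 7 for RT 3 h against HS (55.7%). Besides those named above, these were LOC107774416 and LOC107773510, both lower under HS than at RT 6 h, and LOC107817391 and LOC107830120 between RT 3 h and HS. The condition with the highest mean was RT 6 h in 14 members, HS in 10 and RT 3 h in 7. Of the 867 other abundant genes, 584 were highest under HS with TMM. Their median log2FC of HS against RT 3 h was 0.31 with TMM, beside a log2 difference of 0.29 between the mean TMM factors of these conditions. How many were highest under HS without TMM was not counted.

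What the 31 genes share beside the rule was slight. They lie on 31 different scaffolds, and none overlaps another annotated gene, so that reads of a neighbour on the other strand, which the non-stranded libraries cannot separate, do not add to their counts in this annotation. Their median exon length was 1701 bases against 1722 in the 867. All 31 had at least 2 exon blocks with a median of 8, whereas the median was 5 in the 867, of which 93 had 1 block. The median level per exon length was 111 RPKM against 166. None of these differences was tested. In a RefSeq table of another tobacco assembly, K326, 28 of the 31 are protein coding, LOC107774416 is a pseudogene, and LOC107801535 and LOC107773510 were not found.

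Other genes of the named members' families did not all share their level course. Of 6 further tubulin genes by name, 4 had a mean of at least 100 CPM in each condition, and none met the rule. While TUA5 stayed at 1469, 1471 and 1447 CPM, tubA2 rose from 517 ± 6.31 at RT 3 h to 616 ± 12.9 at RT 6 h and fell to 468 ± 23 under HS, a log2FC of -0.40 from RT 6 h to HS (edgeR quasi-likelihood test, FDR 5.6e-14). The α-tubulin gene tubA3 rose from 1507 ± 27.7 CPM to 1701 ± 51.9 (log2FC 0.17, FDR 9.8e-05 in the same test), and the β-tubulin gene TUB8 from 1851 ± 17.1 to 2454 ± 46.5 (log2FC 0.41, FDR 4.7e-16). Without TMM the rise of tubA3 was no longer called (log2FC 0.02). The profilin genes beside PRO2 had similar levels at RT 3 h and higher ones under HS: PRO1 went from 525 ± 41.2 at RT 6 h to 591 ± 24 CPM (log2FC 0.17, FDR 0.00061) and PRO3 from 460 ± 26.6 to 612 ± 3.2 CPM (log2FC 0.41, FDR 1.7e-14), while PRO2 went from 547 to 554 CPM. The call of PRO1 was lost in 7 of 13 alternatives, among them the fit without TMM (log2FC 0.014), whereas those of tubA2, TUB8 and PRO3 were kept in all 13. The difference between a member and another gene of its family was not tested, and which of them are copies was not determined.

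For the proton pyrophosphatase, the only other homolog above 100 CPM was LOC107778409, one of the 100 genes left out. Both had their highest mean at RT 6 h, with 1822, 1967 and 1806 CPM for LOC107778409 and 746, 796 and 752 for LOC107776076. The log2FC of HS against RT 6 h was -0.12 for LOC107778409 (edgeR quasi-likelihood test, FDR 0.0061), which was not called here but was in 5 of 13 alternatives. The other 6 homologs had means between 0.89 and 23.1 CPM. Beside CA, LOC107822687 stood at 209 ± 2.84, 212 ± 6.65 and 225 ± 4.48 CPM, with a range of 0.106 just outside the limit, and without TMM its difference between RT 6 h and HS turned (log2FC -0.074). The second MGD2 homolog, LOC107814929, rose from 230 ± 4.27 to 276 ± 5.91 CPM under HS (log2FC 0.26, FDR 1.6e-07) while the steady homolog, LOC107778411, was at 265 and 257 CPM. Without TMM this rise was not called (log2FC 0.11). LOC107813194, another abundant SMT1 homolog, was at 347 ± 9.49 and 375 ± 4.83 CPM, at an FDR of 0.023 in the same test, and without TMM the direction turned (log2FC -0.044). LOC107791596, a PLC2 homolog beside PLC3, rose from 129 ± 4.72 to 152 ± 2.81 CPM (log2FC 0.23, FDR 1.4e-05), again not without TMM (log2FC 0.08). Reads that fit a pair of close copies may have been split or lost in counting, since their treatment is not given in the sources used here.

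**Figure D4:**
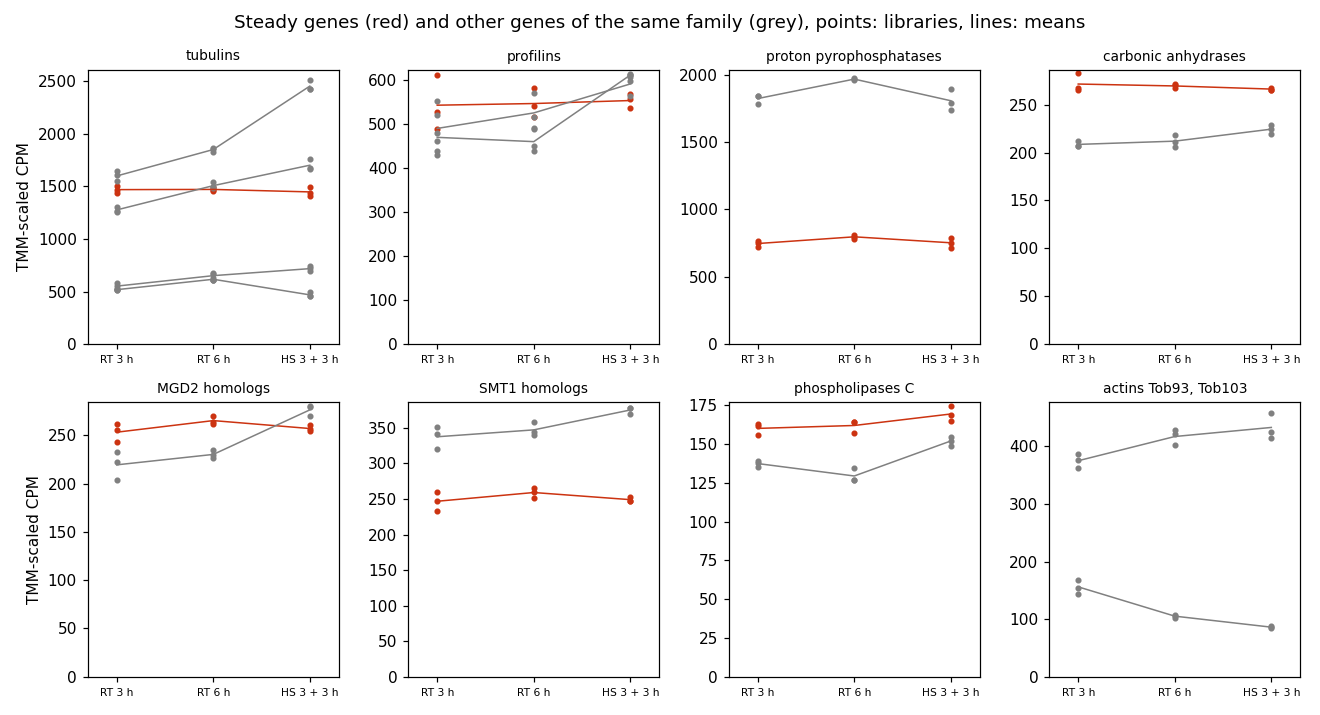
TMM-scaled CPM in the 9 libraries (points) and condition means (lines) of steady genes (red) and of other genes of the same family with a mean of at least 100 CPM in some condition (grey), with the actins Tob93 and Tob103 in the last panel; axes start at 0. The red lines of TUA5 and PRO2 are level from 1469 to 1447 and from 543 to 554 CPM, while TUB8 ends at 2454 and PRO3 at 612.

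Of the genes looked up by name as references, the tubulins above aside, none was among the 31. The actin gene Tob93 had 375 ± 11.9, 417 ± 13.8 and 433 ± 22.1 CPM in that order of conditions, and without TMM its difference between RT 6 h and HS turned (log2FC -0.10). The actin gene Tob103 fell from 156 ± 12.2 over 105 ± 2.73 to 86.2 ± 2.12 CPM (edgeR quasi-likelihood test, FDR 2e-08 and 3.3e-07). The EF-1-alpha and L25 genes found by name were at 9.07 to 11.2 and at 5.93 to 8.08 CPM, and 8 eIF-4A genes at 4.27 to 48.8 CPM, all under the level that the 31 genes had to reach. Only genes with a name in the K326 table were looked at, and other copies of these families were not identified.

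How steady the genes are rests on the scaling. The TMM factors were 1.09 to 1.13 for RT 3 h, 0.988 to 1.02 for RT 6 h and 0.896 to 0.906 for HS, so that the mean factor of RT 3 h exceeded that of HS 1.22-fold. By share of all counts, the 31 genes went from 1.09 ± 0.0195% at RT 3 h over 1.00 ± 0.0267% at RT 6 h to 0.894 ± 0.0177% under HS (SD, n = 3), and on TMM-scaled library sizes they made up 0.989%, 1.00% and 0.992%. In CPM without TMM, all 31 genes, TUA5 included, were lower under HS than at RT 3 h, with log2 differences from -0.39 to -0.19 and a median of -0.28. The median of all genes that passed the filter moved by the same -0.28. Without TMM, 83 other genes met the rule and none of the 31 did. All 83 were higher under HS than at RT 3 h once TMM was applied, by a median of 0.31 on the log2 scale. These directions are built in. The mean factors of RT 3 h and HS differ by 0.29 on the log2 scale, too much for a gene to meet the rule with and without TMM. A gene that meets it with TMM therefore falls without TMM, and one that meets it without TMM rises with it. That the 31 and the 83 share no gene and move in opposite directions thus says nothing beyond the rule and the factors. In bulk tubes, a smaller share of cells that express a gene and less of its RNA per cell cannot be told apart, nor can an equal share be told from an equal amount per tube.

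**Figure D5:**
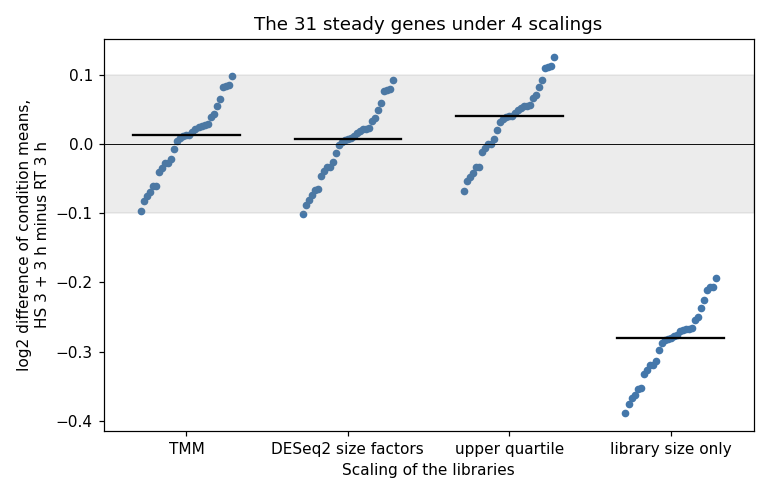
Log2 difference between the HS and RT 3 h means of each of the 31 steady genes (points, sorted) under 4 ways of scaling the libraries, with black bars for the median; the grey band is 0.1 either side of 0. The medians are 0.01, 0.01 and 0.04 for TMM, DESeq2 size factors and upper-quartile scaling, and -0.28 by library size alone.

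Other scalings that, like TMM, line up the bulk of genes kept most of the set. DESeq2 size factors gave 31 genes, 30 of them shared, and upper-quartile scaling gave 27, of which 20 were shared. TUA5, PRO2 and CA were among the 19 genes that met the rule under all 3 scalings. When each library was left out in turn, between 30 and 37 genes met the rule, with 23 to 30 of the 31 among them. Without RT 3 h replicate 1 there were 37, of which 26 were shared. TUA5, CA, oas7, LOC107778411, LOC107796649 and LOC107801535 were among the 13 members that met it whichever library was left out, and LOC107775008 and LOC107813707 met it in 5 of the 9 cases, the fewest.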

How the data were processed

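The authors prepared non-stranded mRNA libraries, mapped the reads with STAR 2.5.2a to the TN90 assembly, and deposited counts per gene from featureCounts 1.5.0-p1, which are whole-number counts without normalization. The handling of multi-mapping reads is not given in the sources used here. Group and replicate were taken from the labels. Positions and exon lengths are those of the deposited TN90 annotation, whose start and end columns were the only other values used. There were 0 further per-sample columns.

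With edgeR 4.0.16 (R 4.3.3), CPM were scaled by TMM factors taken over genes past 0.5 CPM in 2 or more libraries, with library totals over all genes as library sizes. Each of the 3 comparisons was a separate fit of its 6 libraries by the quasi-likelihood test of edgeR with Benjamini-Hochberg adjustment, and genes were called at an FDR of at most 0.005 with no limit on the log2FC. SEs were computed from the unshrunk log2FC and the F statistic. Fits were tested on simulated data. Python 3.11.15, pandas 2.3.3 and matplotlib 3.10.9 were used for tables and figures.

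The members, lists and tests were chosen with earlier results of these data known. The rule for named genes took the 10 with the smallest range, the 10 with the highest CPM, the 5 with the smallest and the 5 with the largest replicate SD, those next to each threshold, up to 3 members of each gene list, and abundant reference genes. The other members were named after their values were seen. The 19 lists were patterns for product names, which the annotation does not give. Names came from RefSeq's K326 gene table, which held 56720 of 72624 identifiers and another name for 1055 genes; its coordinates were not used. With these names 13 lists matched no gene. The others matched 4 reference genes, 7 actin cytoskeleton genes (PRO2 as the 1 member), 2 vesicle traffic, 2 glycolysis, 2 cell wall and 6 heat shock protein genes. Homologs from the study's supplement, held in part, and gene families by name were therefore added after the values were seen, and gene families are incomplete.

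Alternatives were other scalings, limits, filters and tests, all 9 libraries in one fit, DESeq2 1.42.0, the replicate number as a block, and leaving out each library. Library sizes recomputed after the filter, TMM factors over all genes, the ranges of single members, the log2FC of copies and the comparison with exon length were added after seeing the data.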

Additional observations from a re-analysis of the deposited data

How the results depend on the processing

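The rule gave 31 genes. Library sizes without TMM gave 83, a limit of 0.05 gave 10 and one of 0.2 gave 121, and a mean of at least 50 or 200 CPM gave 59 or 17. The other scalings, condition medians, no filter, TMM over all genes and library sizes after the filter (chosen after seeing the data, as was TMM over all genes) gave 27 to 37, and leaving out 1 library gave 30 to 37. Called members stayed at 0 in all 3 comparisons under every alternative run, an FDR limit of 0.05 and each left-out library included (0 to 0), except without TMM, where 2, 23 and 31 were called for growth at RT, for HS against RT 6 h and for HS against RT 3 h. Over all genes tested without TMM, 3717 of 23043, 7736 of 23053 and 9418 of 23373 were called in the same order. DESeq2, with 0 members called, called 2791, 5431 and 6636 of these genes. From RT 3 h to HS, the median of all genes that passed the filter moved by -0.28 (log2) without TMM and by 0.007 with it. With the TMM-scaled size as denominator, the share of counts was 0.989% for RT 3 h and 0.992% for HS. Leaving out 1 library gave shares of 1.08 to 1.10%, 0.990 to 1.02% and 0.888 to 0.904% in the order RT 3 h, then RT 6 h, then HS, and a median replicate SD of 0.0402 to 0.0538.

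Without TMM, the log2FC of HS against RT 6 h turned to -0.015 for BYtuba (LOC107797065), -0.044 for LOC107813194, -0.074 for LOC107822687 and -0.10 for Tob93 (LOC107821481). The 13 genes tried were other genes of the members' families and the actins Tob93 and Tob103, each under 13 alternatives. Of their values, 141 kept their direction and their side of the threshold, and 19 kept their direction and lost a call. Another 5 gained a call (all LOC107778409), and the 4 above turned. The call of BYtuba was kept in 3 of 13.

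Same-numbered libraries did not deviate together in all pairs (correlations of 0.178, 0.0218 and 0.113 between RT 3 h and RT 6 h, and from -0.0389 to 0.0207 in the other comparisons), so the numbers were not taken to pair the samples. Differently numbered libraries of RT 3 h and RT 6 h had correlations from -0.143 to 0.0453. With the replicate block, 0 members were called in each comparison, and the genes called went from 3528 to 4530, from 7349 to 6915 and from 8258 to 7931. Members under an unadjusted p of 0.05 in the quasi-likelihood test with the block numbered 5, 0 and 1. Nearest proteins of the members, planned with limits on identity, were not computed because no protein sequences were at hand. A median SE of 0.0427 to 0.0538 on the log2 scale sets what 3 libraries per condition can show in a single gene.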
